A study of Mus musculus with 6 samples.

Results

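Genes that encode natural killer (NK) cell receptors or their signalling adaptors, 10 in all, were followed in messenger RNA of CD8+ T cells purified from mouse liver: Klrd1, Klrc1, Klrk1, Klrb1c, Klrg1, Klre1, Klra7, Ncr1, Tyrobp and Fcer1g. They were taken by name from the deposited count table, which holds 10 rows of these names among 54532 genes. The study compared 3 control libraries, whose genotype field reads Wild type, with 3 libraries labelled CUMS, a label that the sources do not spell out and that the series text places in chronic stress. The sources used here do not give the strain, sex, age, length of treatment or way of purifying the cells. They also do not say that replicates were separate animals, and the p-values therefore rest on a spread between libraries that may be technical.

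Killer cell lectin-like receptors are paired membrane proteins through which lymphocytes read MHC class I and stress-induced molecules on other cells. Inhibitory members, such as the CD94 and NKG2A pair encoded by Klrd1 and Klrc1, carry inhibitory motifs in their own tails, whereas activating members have short tails and borrow the tyrosine motifs of small adaptors, among them Tyrobp (DAP12) and Fcer1g (the Fc receptor gamma chain). Activated and memory CD8+ T cells take up part of this receptor set, and the liver is rich in NK cells and type 1 innate lymphoid cells that carry much of it. Both adaptors are also abundant in monocytes, neutrophils and macrophages.

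Total counts were 14902248 to 18023206 per library. The libraries had the markers of their label: Cd8a, the CD8 alpha chain, had 741 to 838 CPM (read counts put on the same library size by TMM factors) in control and 1161 to 1218 in CUMS, and Cd3e, a chain of the T cell receptor complex, 311 to 336 and 335 to 432. They also held markers of other cells. S100a9, a monocyte and neutrophil marker, had 1006 to 1596 CPM in control and 469 to 766 in CUMS. Cd4 had 218 to 239 and 91.8 to 96.4. CUMS replicates 2 and 3 stood apart, with reads on 15012 and 14670 genes against 17616 to 20292 in the other 4 libraries. Their total counts were also the lowest, at 15798759 and 14902248 against 17642478 to 18023206. In a bulk library, fewer cells of a type and less RNA per cell cannot be told apart.

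None of the 10 genes passed an adjusted p of 0.05 in either direction (edgeR's quasi-likelihood test, Benjamini-Hochberg over all 14054 genes tested), where 1.31% of all genes were called, 0.946% lower and 0.363% higher. All 10 were tested, and 9 had a negative log2 fold change, against 50.7% of all genes. At an unadjusted p under 0.05, 6 were lower and 1 was higher in CUMS, where 8.22% and 7.06% of all genes were. The CPM of the groups did not overlap for 6 genes, all lower in CUMS, a pattern that 11.9% of all genes had, with 10.8% higher without overlap. The median log2 fold change was -0.58, against -0.01 over all genes tested. DESeq2 called Tyrobp, Fcer1g and Klrb1c lower (DESeq2 adjusted p = 0.00169, 0.0117 and 0.0359; 3.08% of all genes were called lower). Limma voom with sample weights called Tyrobp and Klrb1c lower and Klrd1 higher (adjusted p = 0.0446, 0.0497 and 0.0415; 2.08% and 1.46% of all genes were called lower and higher). Tyrobp was also called lower by edgeR with no filter on low counts, as were Fcer1g and Klrg1 (2.08% of all genes), with a stricter filter (1.9%) and among protein-coding genes only (1.7%).

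**Figure D1:**
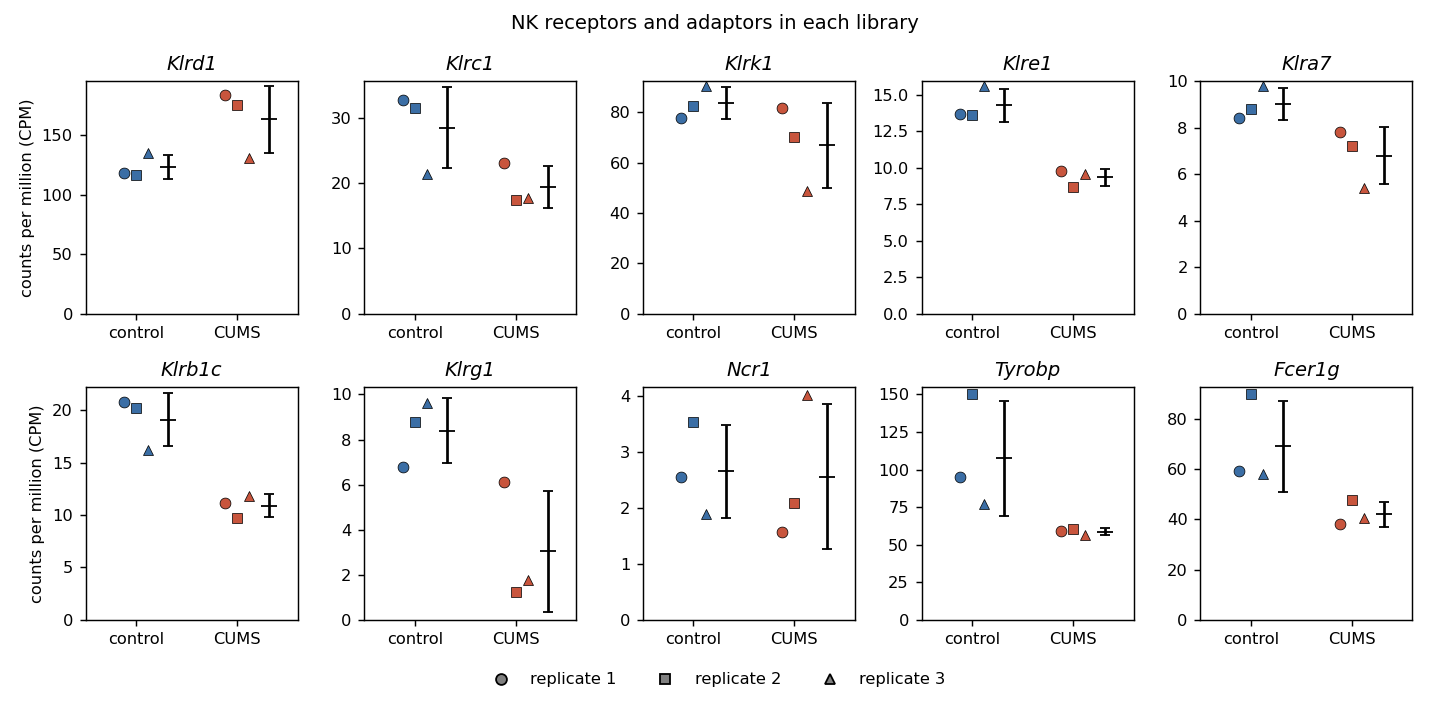
CPM (y axis, linear from 0) of the 10 genes in the 3 control and 3 CUMS libraries, with symbols for the replicate number and a bar for mean ± SD at the right of each group. Klrd1 has CUMS replicates 1 and 2 above all controls, at 183.9 and 175.1 CPM, and Ncr1 has CUMS replicate 3 above them, at 4.03 CPM. Klrb1c, Klre1, Klra7, Klrg1, Tyrobp and Fcer1g have all 3 CUMS libraries below all controls.

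Klrd1 (ENSMUSG00000030165, mm10 chromosome 6, 129591782 to 129598775, plus strand) encodes CD94, the shared partner of the chains encoded by Klrc1, Klrc2 and Klrc3. It had 118.6, 116.3 and 135.3 CPM in control replicates 1, 2 and 3, and 183.9, 175.1 and 131.1 CPM in CUMS replicates 1, 2 and 3. CUMS replicates 1 and 2 lay above all controls, and CUMS replicate 3 lay within the control range. Its log2 fold change was 0.41 ± 0.14 (SE, n = 3 and 3; 95% interval 0.10 to 0.71; edgeR adjusted p = 0.193), the one positive value among the 10 genes. The value stayed between 0.28 and 0.57 over 16 alternative settings.

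Klrc1 (ENSMUSG00000030167, chromosome 6, 129666015 to 129678973, minus strand) encodes NKG2A, the inhibitory chain that pairs with CD94 and binds the nonclassical class I molecule Qa-1. It had 32.7, 31.5 and 21.4 CPM in the controls and 23.1, 17.4 and 17.7 CPM in CUMS. Control replicate 3 was the lowest control and lay below CUMS replicate 1, so the groups overlapped. The log2 fold change was -0.55 ± 0.21 (95% interval -1.02 to -0.09; edgeR adjusted p = 0.243). Klrc2, which encodes the activating partner NKG2C, had 14.2, 13.6 and 14.1 CPM in control and 11.1, 4.06 and 6.80 CPM in CUMS, with no overlap (-0.93 ± 0.33, edgeR adjusted p = 0.21). Klrc1 and Klrc2 share sequence: 38.6% of the 50-base words of the Klrc1 transcripts occur in transcripts of other genes, so the split of reads between them is uncertain.

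Klre1 and Klra7 encode further lectin-like receptors of the same region. Klre1 (chromosome 6, 129577905 to 129585827, plus strand), a partner chain of the KLRI receptors, had 13.6, 13.6 and 15.6 CPM in control and 9.77, 8.68 and 9.57 CPM in CUMS. The 3 CUMS libraries lay close together and below all controls, with a log2 fold change of -0.61 ± 0.22 (95% interval -1.09 to -0.13; edgeR adjusted p = 0.212). Klra7 (chromosome 6, 130218605 to 130233322, minus strand) encodes Ly49G, an inhibitory receptor for class I molecules, and had 8.44, 8.83 and 9.80 CPM in control and 7.81, 7.20 and 5.41 CPM in CUMS. The groups did not overlap, but the gap between them was small and the interval of the log2 fold change reached from -1.02 to 0.21 (-0.40 ± 0.28; edgeR adjusted p = 0.564). Of the 50-base words of Klra7 transcripts, 12.3% also occur in the pseudogene Klra13-ps.

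Klrg1 (ENSMUSG00000030114, chromosome 6, 122270596 to 122282882, minus strand) encodes an inhibitory receptor for cadherins that marks terminally differentiated effector T cells and mature NK cells. It had 6.80, 8.77 and 9.62 CPM in control, and 6.12, 1.23 and 1.78 CPM in CUMS, from 109, 20 and 27 reads. CUMS replicates 2 and 3 were far below the other 4 libraries, among which CUMS replicate 1 was the lowest. The log2 fold change was -1.45 ± 0.53 (95% interval -2.63 to -0.28; edgeR adjusted p = 0.222), the largest of the 10 in size and the one that moved most with single libraries. Leaving out CUMS replicates 2 and 3 gave -0.46, and leaving out CUMS replicate 1 gave -2.48, which passed (edgeR adjusted p = 0.665 and 0.0494; 0.439% of all genes were called lower in the latter fit). Those replicates also lacked reads for 0.757% and 1.09% of 1189 genes at an average level of 4 to 8 CPM, a share that was 0 in the other 4 libraries; its part in this value was not tested.

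**Figure D2:**
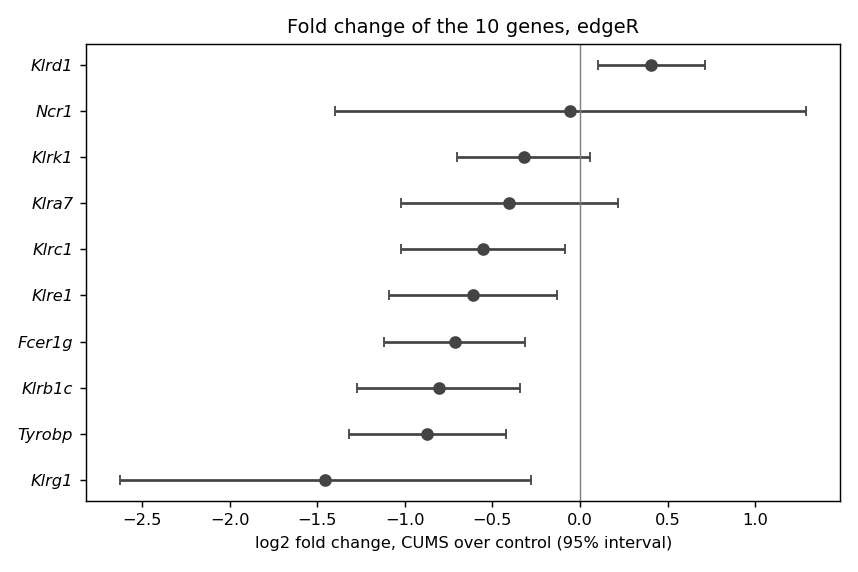
Log2 fold change of CUMS over control (x axis) with its 95% interval from edgeR for each of the 10 genes. Klrd1 lies to the right of 0 at 0.41, and the intervals of Klrk1, Klra7 and Ncr1 include 0.

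Among the activating receptors, Klrk1 (ENSMUSG00000030149, chromosome 6, 129610323 to 129623864, minus strand) encodes NKG2D, which binds stress-induced ligands and is present on NK cells and on activated CD8+ T cells. It had 77.7, 82.5 and 90.3 CPM in control and 81.8, 70.0 and 48.6 CPM in CUMS. CUMS replicate 1 lay inside the control range and CUMS replicate 3 well below it. The log2 fold change was -0.32 ± 0.17 (95% interval -0.70 to 0.06; edgeR adjusted p = 0.427) and was -0.03 without CUMS replicates 2 and 3.

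Klrb1c (ENSMUSG00000030325, chromosome 6, 128778485 to 128789215, minus strand) encodes NKR-P1C, the antigen used to define NK cells and NKT cells in C57BL mice. It had 20.8, 20.2 and 16.2 CPM in control and 11.2, 9.73 and 11.8 CPM in CUMS. All CUMS libraries lay below all controls, and the log2 fold change was -0.81 ± 0.21 (95% interval -1.27 to -0.35; edgeR adjusted p = 0.0883). Transcripts of Klrb1c share 17.0% of their 50-base words with other genes, chiefly Gm44511. Gm44511 overlaps Klrb1c on the same strand and had 0 reads, so the level of Klrb1c is uncertain. The log2 fold change ranged from -0.93 to -0.74 over 16 alternatives and was -0.78 without CUMS replicates 2 and 3.

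Ncr1 (ENSMUSG00000062524, chromosome 7, 4337724 to 4345164, plus strand) encodes NKp46, an activating receptor that pairs with the Fc receptor gamma chain and that, among lymphocytes, marks NK cells and some innate lymphoid cells. It had 2.55, 3.54 and 1.89 CPM in control and 1.57, 2.09 and 4.03 CPM in CUMS, from 28 to 63 reads per library. CUMS held both the lowest and the highest library. The interval of its log2 fold change, -1.40 to 1.29, spans differences in both directions, and no difference was detectable at this depth (-0.06 ± 0.61; edgeR adjusted p = 0.982), and the value turned positive when control replicate 2, CUMS replicate 1 or CUMS replicate 2 was left out (0.20, 0.19 and 0.06).

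The stretches around the start sites of Klrc1, Klrk1, Klrb1c and Fcer1g, from RefSeq on GRCm38.p6, are shown as examples of windows that hold the same RUNX core letters, from receptors and an adaptor. Klre1 and Ncr1, each with 2 windows in the RefSeq table, also hold them and are not printed. Each runs 5′ to 3′ on the gene's strand from 250 bases before the start to 50 after it, and capitals mark TGTGGT or its reverse complement ACCACA.
Klrc1, chr6:129678924-129679223, minus strand: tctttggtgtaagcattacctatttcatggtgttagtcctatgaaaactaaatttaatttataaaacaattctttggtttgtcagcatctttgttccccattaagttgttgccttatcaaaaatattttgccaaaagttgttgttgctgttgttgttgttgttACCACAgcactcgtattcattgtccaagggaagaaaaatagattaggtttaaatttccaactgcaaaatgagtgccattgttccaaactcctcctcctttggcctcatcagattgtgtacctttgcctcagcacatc
Klrk1, chr6:129623815-129624114, minus strand: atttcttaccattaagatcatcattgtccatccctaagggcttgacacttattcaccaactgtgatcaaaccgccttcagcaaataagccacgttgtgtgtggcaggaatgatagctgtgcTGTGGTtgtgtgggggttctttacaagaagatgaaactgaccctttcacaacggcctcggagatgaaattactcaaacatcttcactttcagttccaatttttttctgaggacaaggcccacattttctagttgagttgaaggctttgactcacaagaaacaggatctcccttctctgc
Klrb1c, chr6:128788592-128788891, minus strand: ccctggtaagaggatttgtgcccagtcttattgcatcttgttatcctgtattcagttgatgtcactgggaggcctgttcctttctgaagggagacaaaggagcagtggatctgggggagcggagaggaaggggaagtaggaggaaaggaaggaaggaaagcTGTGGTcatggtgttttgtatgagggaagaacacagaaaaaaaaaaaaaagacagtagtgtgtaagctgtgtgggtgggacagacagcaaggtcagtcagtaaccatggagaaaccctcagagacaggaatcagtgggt
Fcer1g, chr1:171234300-171234599, minus strand: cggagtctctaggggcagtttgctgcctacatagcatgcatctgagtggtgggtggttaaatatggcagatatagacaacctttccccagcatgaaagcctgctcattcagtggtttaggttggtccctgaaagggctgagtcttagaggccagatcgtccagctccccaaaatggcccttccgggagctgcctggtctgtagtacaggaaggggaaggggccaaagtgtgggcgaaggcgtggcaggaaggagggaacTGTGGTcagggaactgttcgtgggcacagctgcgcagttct

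The letters begin at position -87 in Klrc1, -129 in Klrk1, -89 in Klrb1c and 10 in Fcer1g, counted from 1 at the start site. Promoters were at hand for 7 of the 10 genes, 10 windows in all. TGTGGT on either strand was in 7 of the 10 windows, and in at least 1 window of 6 genes, Klra7 being the exception. The 2 windows of Ncr1 overlap, as do the 2 windows of Klre1, and all are counted, so the 10 windows are not separate. Of all 32851 mouse promoters of this length, 16.8% hold it. AGGAAG, a core of ETS sites, was on either strand in 4 of the 10 windows, from 4 genes (35.4% of all promoters), and GGTGTG, a T-box core, was in none (19.0%). TGTGGT and GGTGTG can share letters where they lie side by side. The motifs were chosen after the data were seen, and a match describes the letters only.

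The adaptors had the smallest p-values of the 10 genes. Tyrobp (ENSMUSG00000030579, chromosome 7, 30413760 to 30417585, plus strand) had 95.02, 150.2 and 77.0 CPM in control and 59.2, 60.5 and 56.4 CPM in CUMS. The CUMS libraries lay together below all controls, and control replicate 2 was far above the other controls. The log2 fold change was -0.87 ± 0.20 (95% interval -1.32 to -0.42; edgeR adjusted p = 0.0627) and -0.56 without control replicate 2 (edgeR adjusted p = 0.267).

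Fcer1g (ENSMUSG00000058715, chromosome 1, 171229572 to 171234365, minus strand) had 59.3, 90.1 and 57.9 CPM in control and 38.2, 47.6 and 40.4 CPM in CUMS. Again all CUMS libraries were below all controls and control replicate 2 was the highest. The log2 fold change was -0.72 ± 0.18 (95% interval -1.12 to -0.31; edgeR adjusted p = 0.0851), and -0.48 without control replicate 2 (edgeR adjusted p = 0.391). Hcst, which encodes DAP10, the adaptor that couples NKG2D to phosphoinositide 3-kinase, had 50.3, 51.4 and 39.2 CPM in control and 69.4, 52.3 and 35.5 CPM in CUMS. Its groups overlapped, with CUMS holding both the highest and the lowest library (0.16 ± 0.22, edgeR adjusted p = 0.809; -0.11 without CUMS replicate 1).

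Levels of different genes were compared per kilobase of the deposited gene length. In control the order of CPM per kb was Tyrobp, Klrd1, Fcer1g, Klrc1, Klrk1, Klra7, Klrb1c, Klrg1, Klre1 and Ncr1, from 161 ± 57.1 for Tyrobp (SD, n = 3) to 1.73 ± 0.54 for Ncr1. Among neighbours in this order, the ranges of Klrd1 and Fcer1g overlapped, as did those of Klrc1 and Klrk1, of Klra7 and Klrb1c, and of Klrb1c and Klrg1. In CUMS, Klrd1 came first at 127.5 ± 22.1 CPM per kb and Tyrobp second at 88.0 ± 3.18, with no overlap between them. Klre1 stood before Klrg1 there. Among neighbours, the ranges of Klrc1 and Klrk1, of Klre1 and Klrg1, and of Klrg1 and Ncr1 overlapped. The range of Klrg1, 0.871 to 4.33, also overlapped those of Klrb1c and Klra7, and that of Klre1 overlapped Ncr1.

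Ratios within a library do not depend on the scaling of that library. Klrd1 over Klrc1, as CPM per kb, was 5.61, 5.72 and 9.80 in control and 12.3, 15.6 and 11.5 in CUMS. Klrd1 over Klrk1 was 8.56, 7.90 and 8.40 in control and 12.6, 14.0 and 15.1 in CUMS. Klrd1 over its upstream neighbour Klre1 was 23.7, 23.3 and 23.7 in control and 51.3, 55.0 and 37.4 in CUMS. All 3 ratios were higher in every CUMS library than in any control library, by 1.91-fold, 1.68-fold and 2.01-fold between the geometric means.

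The same held for Klrd1 over the sum of Klrc1, Klrc2 and Klrc3, the chains CD94 can pair with, at 4.33 to 6.83 in control and 8.30 to 8.41 in CUMS. Tyrobp over Hcst was 2.04, 3.16 and 2.12 in control and 0.923, 1.25 and 1.72 in CUMS, lower in every CUMS library. Tyrobp over Fcer1g overlapped between the groups, at 1.74 to 2.18 in control and 1.67 to 2.03 in CUMS. For each of the 5 ratios without overlap the two-sided exact permutation test gave p = 0.1, the smallest that 3 against 3 libraries allow, and 0.12 adjusted over the 6 ratios computed. For Tyrobp over Fcer1g the exact permutation test gave p = 0.4. The ratios were chosen after the data were seen.

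**Figure D3:**
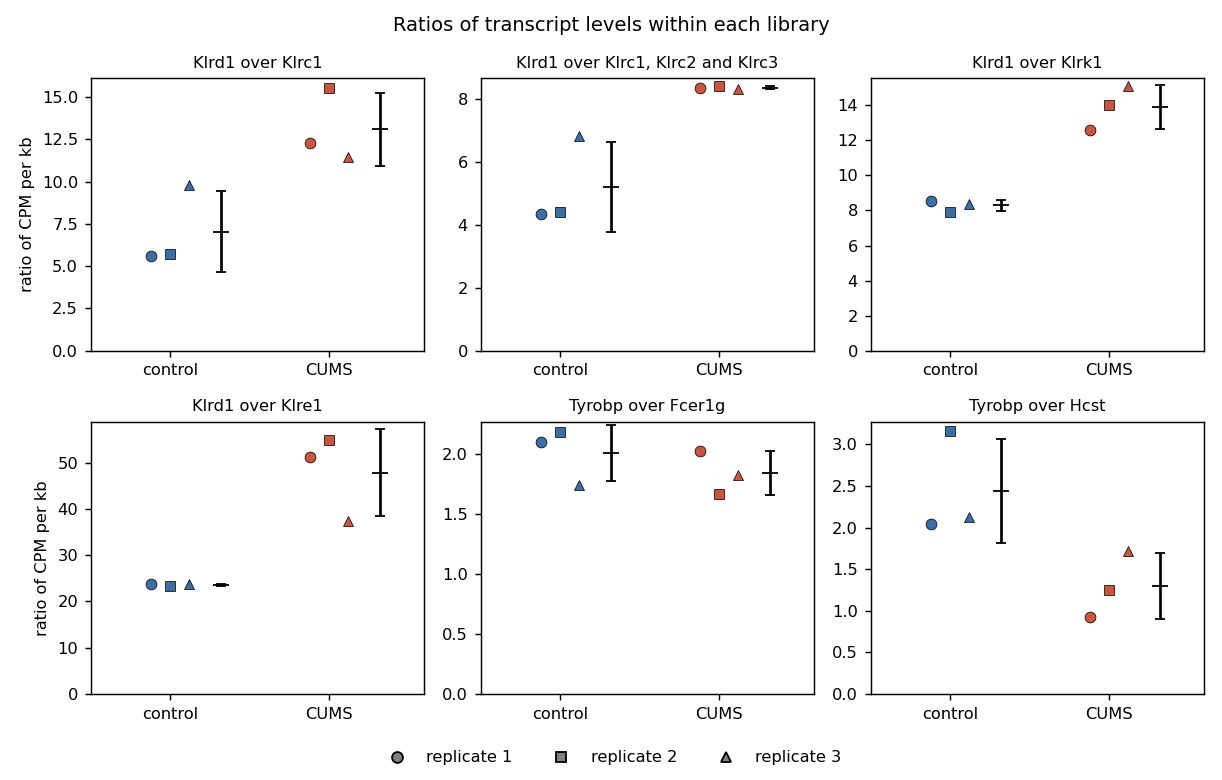
Ratios of CPM per kb (y axis, linear from 0) between pairs of genes in each library, with symbols for the replicate number and a bar for the arithmetic mean ± SD. In the panels of Klrd1 over Klrc1, Klrk1 and Klre1 every CUMS library is above every control library, from 11.5, 12.6 and 37.4 upwards; Tyrobp over Hcst is lower in CUMS and Tyrobp over Fcer1g overlaps.

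Klrb1c, Klre1, Klrd1, Klrk1, Klrc1 and Klra7 lie in the NK gene complex of chromosome 6, which also holds the Ly49 genes (Klra) and the Clec2 genes. From Klrb1a to Klra2 (128609227 to 131247362), 23 Klr genes were tested, of which 20 had a negative and 3 a positive log2 fold change, with a median of -0.53 and none past the threshold in edgeR (5 at an unadjusted p under 0.05, against 15.3% of all genes). The positive ones were Klrd1, Klrc3 (0.82 ± 0.64) and Klra3 (0.73 ± 0.60), the latter both under 5 CPM. Negative Klr genes were this low too, such as Klrb1a, Klrb1b, Klra4 and Klra8, at means of 0.45, 0.77, 0.79 and 0.76 CPM (SE 1.28 to 1.43). Klrb1a, Klrb1b and Klra8 had no reads in CUMS replicate 3, and Klra4 had none in CUMS replicate 2. Klrd1 lies 5954 bases downstream of Klre1 and 11547 bases from the end of Klrk1, both of which had negative values. The other 12 tested genes of the interval had a median of -0.24, and Clec7a, a beta-glucan receptor of myeloid cells that was picked for its call, fell (115.5, 173.2 and 136.7 CPM in control against 88.2, 91.7 and 78.0 CPM in CUMS; -0.72 ± 0.15, edgeR adjusted p = 0.0438). It passed in 1 of the 6 edgeR fits that left out 1 library (adjusted p = 0.0405 to 0.236). Cd69, an activation marker of T cells in the same interval, had -0.04 ± 0.12 (edgeR adjusted p = 0.933).

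**Figure D4:**
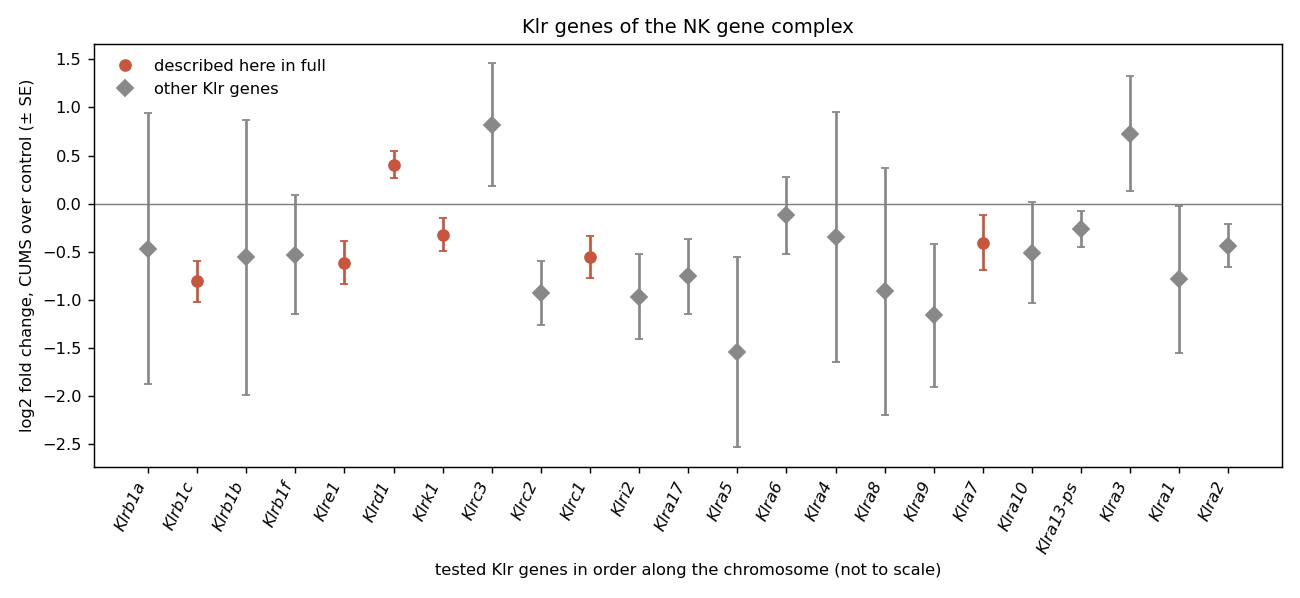
Log2 fold change of CUMS over control ± SE (y axis) for the 23 tested Klr genes in their order along chromosome 6 (x axis, not to scale), circles for the genes described in full and diamonds for the others. Klrd1 at 0.41 stands above 0 between Klre1 at -0.61 and Klrk1 at -0.32.

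Of the other lectin-like NK receptors, 16 of 18 in the table were tested, none passed, and 14 were negative with a median of -0.54. Among the negative ones, Klra4, Klra5, Klra8, Klrb1a and Klrb1b had no reads in CUMS replicate 2 or 3. Klri2, a partner of Klre1, had 6.80, 5.397 and 4.75 CPM in control and 2.86, 1.85 and 3.96 CPM in CUMS, with no overlap (-0.97 ± 0.44, edgeR adjusted p = 0.33). Klra2 had -0.44 ± 0.22 with overlap (edgeR adjusted p = 0.39). Of 12 SLAM, nectin-binding and Fc receptors used by NK cells, 1 fell and 0 rose. Of these, 6 were negative and 6 positive, and the median was -0.06. Crtam (0.43 ± 0.15), Cd96 (0.36 ± 0.12) and Ly9 (0.11 ± 0.10) were higher in CUMS without overlap, as 10.8% of all genes were. Fcgr3, Cd244a and Tigit were lower without overlap, as 11.9% of all genes were. The gene that fell was Cd244a, the receptor 2B4, from 33.7, 55.5 and 39.0 CPM in control to 20.9, 23.7 and 14.3 CPM in CUMS (-1.12 ± 0.24, edgeR adjusted p = 0.0448). With any 1 library left out it missed the threshold (6 edgeR fits, adjusted p = 0.0545 to 0.255) and overlaps the abundant gene Ly9 on the opposite strand, so its level is uncertain.

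Downstream of the receptors, none of 24 tested adaptors, kinases, phosphatases and other proximal signalling genes passed in edgeR, 15 were negative, and the median was -0.03. Syk, the kinase that binds the phosphorylated motifs of Tyrobp and Fcer1g, had 176.9, 285.2 and 190.2 CPM in control and 104.4, 121.7 and 144.7 CPM in CUMS. The groups did not overlap, and it missed the threshold narrowly (-0.82 ± 0.18, edgeR adjusted p = 0.0557). Zap70, the related kinase of T cells, had 0.14 ± 0.12 with overlapping groups (edgeR adjusted p = 0.642). Plcg2, a phospholipase of myeloid, B and NK cells, had -0.63 ± 0.16 (edgeR adjusted p = 0.0866), and Ptpn6, the phosphatase SHP-1 recruited by inhibitory receptors, had -0.27 ± 0.11 (edgeR adjusted p = 0.258).

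Ligands of these receptors were tested for 10 of the 16 genes in the table; none passed in edgeR, 5 were negative and 5 positive, and the median was -0.02. Ulbp1, a ligand of NKG2D, had 31.8, 28.4 and 45.0 CPM in control and 22.3, 20.0 and 23.1 CPM in CUMS, without overlap (-0.69 ± 0.20, edgeR adjusted p = 0.122). Cdh1, the cadherin bound by KLRG1, had 0.47 ± 0.23 (edgeR adjusted p = 0.383), and Cd48, the ligand of 2B4, had -0.20 ± 0.12 (edgeR adjusted p = 0.488). H2-T23, which encodes Qa-1, the ligand of CD94 with NKG2A, had 296.5 to 365.3 CPM in control and 379.7 to 390.3 in CUMS, without overlap (0.18 ± 0.11, edgeR adjusted p = 0.495).

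The adaptors also have partner receptors outside NK cells. Of 17 tested myeloid receptors that signal through Tyrobp or Fcer1g, 5 fell, 0 rose and all 17 were negative, with a median of -0.70. Clec4d, a C-type lectin of monocytes and neutrophils, went from 87.7, 130.7 and 81.7 CPM in control to 46.4, 39.5 and 41.1 CPM in CUMS (-1.24 ± 0.18, edgeR adjusted p = 0.0132). The others were Clec4e, the receptor Mincle (-0.99 ± 0.21), Trem1, an amplifier of myeloid activation (-1.23 ± 0.23), Cd300lb (-0.93 ± 0.19) and the Fc receptor Fcgr4 (-1.30 ± 0.23). Clec4d passed in 5 of the 6 edgeR fits that left out 1 library and missed without CUMS replicate 2 (adjusted p = 0.0665). Trem1 passed in 2 of these fits, Fcgr4 in 1, and Clec4e and Cd300lb in 0. The summed level of the 20 genes of the list was 439 to 691 CPM in control and 265 to 300 in CUMS, with Oscar at 0.

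Monocyte and neutrophil markers, 18 in the table and 16 tested, included 5 that fell: S100a9, Cxcr2, Cd14, Ccr2 and Fcgr4, which the list of partner receptors also holds. Of those tested, 15 were negative and 1 was positive, with a median of -0.79. The positive one was Ly6c2 (0.23 ± 0.12, edgeR adjusted p = 0.39). It had 243.4 to 268.4 CPM in control and 276.1 to 347.9 in CUMS, without overlap. Cxcr2 passed in 4 of the 6 fits that left out 1 library, S100a9 in 2, Cd14 in 1 and Ccr2 in 0. The summed level of the list was 3887 to 5930 CPM in control, with control replicate 2 the highest, and 2661 to 3053 CPM in CUMS. No marker was at 0 in all 6 libraries. Of 13 Kupffer cell and macrophage markers 7 were tested and 3 fell (Cd68, Hmox1 and Slc40a1), with a summed level of 166.5 to 251.5 CPM in control and 95.6 to 103.6 in CUMS. Among those tested, 5 were negative and 2 positive. Slc40a1 passed in 2 of the 6 fits that left out 1 library, Hmox1 in 1 and Cd68 in 0. Timd4 had 0 reads in all libraries, and Clec4f, which defines Kupffer cells, had 0 to 8. Of 9 mast cell and basophil markers 6 were tested and 1 fell, Hdc, which neutrophils also express, with summed levels of 162 to 246 CPM in control and 89.8 to 118 in CUMS and Mcpt4 at 0. Hdc alone was 144 to 231 CPM of this sum in control and 71.9 to 103 in CUMS, and the other 8 genes together had 15.4 to 18.1 CPM in control and 15.6 to 17.9 in CUMS. Hdc passed in 2 of the 6 fits that left out 1 library. The part of these cells in the values of Tyrobp and Fcer1g was not tested.

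**Figure D5:**
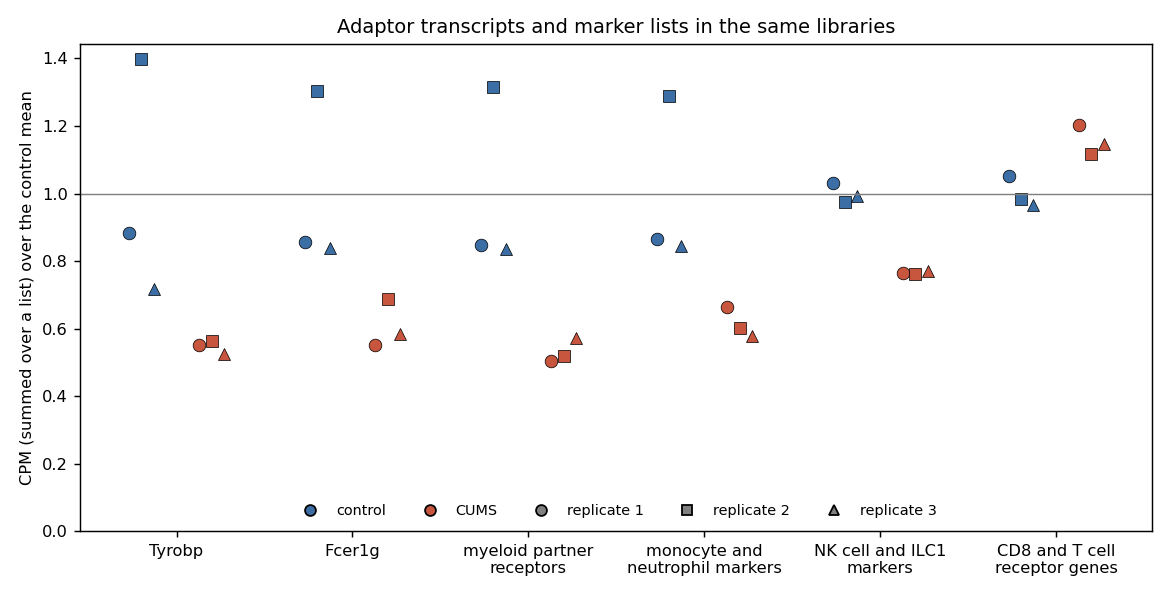
CPM of Tyrobp and Fcer1g and summed CPM of 4 marker lists in each library, over the mean of the 3 controls (y axis, linear from 0), blue for control and red for CUMS, with symbols for the replicate number. Control replicate 2 is the highest library for both adaptors (150.2 and 90.1 CPM) and for both myeloid lists, and the CD8 and T cell receptor genes are higher in CUMS.

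Markers of NK cells and type 1 innate lymphoid cells other than the 10 genes, 16 in the table and 14 tested, had a summed level of 1292 to 1364 CPM in control and 1007 to 1020 in CUMS. Il2rb, the beta chain shared by receptors for interleukins 2 and 15 and also made by CD8+ T cells, had 650 to 720 CPM of this in control and 443 to 521 in CUMS and was the 1 marker that fell (-0.50 ± 0.10, edgeR adjusted p = 0.0419). It passed in 1 of the 6 fits that left out 1 library. The median of the list was -0.26, with 12 negative and 2 positive. Eomes, a transcription factor of NK cells and memory CD8+ T cells, had 56.8 to 68.2 CPM in control and 59.4 to 66.7 in CUMS (-0.04 ± 0.13, edgeR adjusted p = 0.925). Neither Itga1 (-0.86 ± 0.25, edgeR adjusted p = 0.122) nor Itga2 (0.05 ± 0.25, edgeR adjusted p = 0.956), the integrins that part type 1 innate lymphoid cells from NK cells in liver, passed. Itga1 was lower in CUMS without overlap, and the groups overlapped for Itga2, with no difference detected. Tbx21 (-0.44 ± 0.15), S1pr5 (-0.71 ± 0.26), Il18rap (-0.40 ± 0.11), Il12rb2 (-1.01 ± 0.37), Prf1 (-0.28 ± 0.12) and Cxcr6 (-0.22 ± 0.12) were lower without overlap. None of them passed (edgeR adjusted p = 0.111 to 0.426), and 11.9% of all genes were lower without overlap. No marker of that list was at 0 in all 6 libraries.

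Of 14 CD8 and T cell receptor genes, Cd8a rose and 0 fell, with a median of 0.17 and a summed level of 5758 to 6268 CPM in control and 6658 to 7168 in CUMS. Cd8a passed in 3 of the 6 fits that left out 1 library. Of 12 markers of CD4, NKT and gamma delta T cells, 5 fell (Cd4, Foxp3, Tcrg-C2, Cd40lg and Zbtb7b) and the median was -1.20, with summed levels of 478.6 to 513.3 CPM in control and 214.7 to 238.6 in CUMS. Cd4 passed in 6 of the 6 fits that left out 1 library and the other 4 genes in 1 or 2 of them. Scaling each library by its Cd3d, Cd3e and Cd3g reads, which shifts the median of all genes to -0.13, gave log2 fold changes of -1.002 for Tyrobp, -0.84 for Fcer1g and -0.93 for Klrb1c, and these passed (edgeR adjusted p = 0.0319, 0.0488 and 0.0408, with 2.42% of all genes called lower). Klrd1 had 0.28 on that scale.

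The genes with the most similar profiles were sought among 9824 protein-coding genes, by the root mean square distance between centred log2 CPM over the 6 libraries. Nearest to Klrd1 were Bbs9, Pyroxd1 and the splicing factor gene Srsf5, at distances of 0.0478, 0.0540 and 0.0591, where the median gene was at 0.330. Pyroxd1 overlaps Recql on the opposite strand. Nearest to Klrk1 were Rammet, Aaed1 and the small GTPase gene Rala (0.0485, 0.0511 and 0.0529; median 0.353), and Aaed1 overlaps Cdc14b on its own strand. Nearest to Tyrobp were Retnlg, a secreted protein of neutrophils, the glucose transporter gene Slc2a6 and Id1 (0.0679, 0.0724 and 0.0914; median 0.529). Nearest to Fcer1g were the glutathione reductase gene Gsr, the liver-type glycogen phosphorylase gene Pygl and Marcks (0.0580, 0.0722 and 0.0744; median 0.456). Retnlg had 108.8, 154.4 and 86.4 CPM in control and 70.9, 67.0 and 65.5 CPM in CUMS. Control replicate 2 was the highest and the CUMS libraries lay together, as for Tyrobp. The search picked Retnlg for this likeness, so the match is not a separate result.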

How the data were processed

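Bulk RNA-seq counts per gene were analysed for 3 control and 3 CUMS libraries. Per the labels' protocols, RNA was extracted with TRIzol and libraries were made from fragmented mRNA with random primers. Per the submitters' processing notes, the tools were fastp, HISAT2 2.0.5, featureCounts 1.5.0-p3 and DESeq2 1.20.0, with build mm10; strand setting and annotation release: not given in the sources used here. The deposited values used are raw counts. The members and lists were chosen with earlier results of these data known, and the named genes of each list are those past the threshold or, where there were none, up to 3 with the smallest p-values. Hcst, Zap70, H2-T23, Eomes, Itga1, Itga2, Cd3e, Cd69, Clec7a, Klrc3 and Klra3 were named after their values were seen. So were Tbx21, S1pr5, Il18rap, Il12rb2, Prf1 and Cxcr6, and Crtam, Cd96, Ly9, Fcgr3, Tigit and Ly6c2. The same holds for Klra4, Klra5, Klra8, Klrb1a and Klrb1b.

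Genes passing edgeR's filterByExpr (14054) were fitted with TMM factors and tested by edgeR 4.0.16 quasi-likelihood with Benjamini-Hochberg adjustment, in R 4.3.3. The biological coefficient of variation was 29.8%. Total counts of 14902248 to 18023206 put a floor of 3 counts at 0.168 to 0.198 CPM. DESeq2 1.42.0, limma 3.58.1 voom, other scalings and filters, a replicate block and left-out libraries were alternatives. CPM are TMM-scaled, and log2 CPM profiles used a pseudocount of 0.5. The procedure was tested on simulated data.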

Additional observations from a re-analysis of the deposited data

How the results depend on the processing

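The 10 genes kept the sign of their log2 fold change in 156 of 159 alternative fits, the exceptions being Ncr1 without control replicate 2, CUMS replicate 1 or CUMS replicate 2 (0.20, 0.19 and 0.06; range -0.54 to 0.20 with 1 library left out). Their median log2 fold change was -0.66 to -0.48 when 1 library was left out. The number of them past the threshold, 0 lower and 0 higher in edgeR, did depend on the setting: 3 were lower with scaling by Cd3d, Cd3e and Cd3g, 3 with no filter, 1 with a stricter filter, 3 with DESeq2, 2 with limma voom and 1 among protein-coding genes only, and 1 was higher with limma voom. Leaving out 1 library gave 0 to 1 lower, Klrg1 without CUMS replicate 1.

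Over all genes, 184 passed, against 373 with the Cd3 scaling, 704 with no filter, 316 with the stricter filter, 665 with DESeq2, 497 with limma voom, 280 among protein-coding genes only, 7 without CUMS replicates 2 and 3, and 9 to 178 with 1 library left out. Of the genes of the other lists 21 passed, against 38 with no filter, 33 with DESeq2, 1 without CUMS replicates 2 and 3, and 1 to 18 with 1 library left out. The fits without CUMS replicates 2 and 3 leave 1 CUMS library, assumed to vary like the controls. The same-numbered libraries did not deviate together (correlations of 0.00523, -0.0319 and -0.0623, against -0.0396 to 0.0602 for the other pairs). No pairing by number was detected, but correlations between so few libraries cannot exclude one. With the replicate number as a block 71 genes passed, 9 of them in the lists. Hcst turned to -0.11 without CUMS replicate 1 (range -0.11 to 0.37 with 1 library left out), Rammet to 0.10 and the log2 ratio of Tyrobp over Fcer1g to 0.0227 without CUMS replicates 2 and 3. The left-out libraries for the ratios were chosen after seeing the data. The cause of these changes was not tested.

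Depth limits Ncr1 and Klrg1 most, with as few as 28 and 20 reads in a library. The floor of 3 counts covers counting error only, whereas the 95% intervals of the fold changes also hold the spread between libraries.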
